A study of Homo sapiens with 7 samples.

Results

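Solute carrier transporters are the membrane proteins that move amino acids, sugars, ions, metals, vitamins, nucleotides and metabolites across the plasma membrane and the membranes of organelles, other than by ATP-driven pumps. Genes were taken as members by symbol, SLC with a family number, a letter from A to F and a further number, leaving out SLC2A1, SLC2A3, SLC16A3, SLC7A11, SLC11A2 and SLC40A1 and any antisense gene or pseudogene. This gave 174 rows with 173 symbols from 41 families, among 13872 listed genes. RNA was measured by sequencing total RNA of UM-UC-3, a human cell line from a urothelial carcinoma, in 7 libraries. There were 3 clones with high aldehyde dehydrogenase (ALDH) activity (ALDH-high clones 1, 6 and 10, called cancer stem-like by the submitters), 3 clones with low activity (ALDH-low clones 1, 3 and 8), and 1 wild-type culture. The clones were picked with the ALDEFLUOR assay, in which a fluorescent product accumulates in cells with ALDH activity, and ALDH-high clones were grown in DMEM with serum. Each clone gave 1 library and all come from 1 line, so n = 3 refers to clones. Wild type is a single library.

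The SLC nomenclature groups transporters by sequence family and not by substrate, so a family can hold carriers of unlike substrates. Plasma-membrane members feed the cell with amino acids, glucose and vitamins and set its pH and volume. The SLC35 family brings nucleotide sugars into the Golgi for glycosylation, and the SLC25 family carries metabolites across the inner mitochondrial membrane. Tumour cells commonly depend on amino acid and lactate carriers for growth.

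Values are CPM, counts scaled to a fixed library total, which carry no correction for gene length, so levels are compared between libraries and not between genes. The columns sum to between 967085 and 1019855 CPM over the listed genes. A single read corresponds to 0.0393 to 0.0410 CPM, and the limit that a count of 0 sets is 0.118 to 0.123 CPM (3 reads), which covers counting error only. The members together held 0.533 to 0.568% of the listed CPM in the ALDH-high clones, against 0.509 to 0.579% in ALDH-low clones and 0.495% in wild type. Of 17 urothelial marker genes 5 were listed (KRT8, KRT18, KRT7, FOXA1 and PPARG), with a summed level of 499.7 to 739.99 CPM in the ALDH-high clones and 243 to 519.7 CPM in the ALDH-low clones. The other 12, uroplakins, KRT5, KRT20 and GATA3 among them, were not analysed here. Of 13 markers of blood, endothelial and fibroblast cells only CD68 was listed, at 84.3 to 131 CPM in the ALDH-high clones and 64.4 to 92.9 CPM in the ALDH-low clones. The part of these levels in the results was not tested.

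Setting ALDH-high beside ALDH-low clones addresses how clones of high and low ALDH activity from 1 line differ in their transporter transcripts. The test took genes that reached 1 CPM in 3 or more of the 6 clones, among them 164 of the 174 members. A change is the ALDH-high mean minus the ALDH-low mean of log2(CPM + 1), which understates the change of low genes, and a gene with a Benjamini-Hochberg adjusted limma p below 0.05 over all tested genes is said to have risen or fallen. By this rule 2 members fell in ALDH-high clones, SLC35D2 and SLC43A3, and 0 rose. Both met the low-value filter through ALDH-low clones only, so some difference in their level was set in advance. Over all 12705 tested genes 0.693% fell and 0.645% rose, 1.34% in all, so the members' share of 1.22% is near the background. At an unadjusted p below 0.05 there were 24 members with higher and 23 with lower values in ALDH-high clones, 28.7% of those tested, against 10.4% higher and 9.31% lower, 19.7% in all, of the tested genes. The ALDH-high and ALDH-low values did not overlap in 61 members (37.2%), 28 higher and 33 lower, against 14.0% higher and 12.1% lower, 26.1% in all, of the tested genes. The median change of the members was 0.03 log2 units and that of all tested genes 0.0036, and the median size of a change regardless of sign was 0.32 and 0.26 log2 units.

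In all, 5 members passed the low-value filter through the libraries of a single group, so they had to differ in level, among them SLC35D2, SLC43A3 and SLC16A13 through ALDH-low clones and SLC16A10 through ALDH-high clones. The 250 bases before the annotated start are shown for SLC35D2 and SLC16A10, which have an entry in the RefSeq promoter table (GRCh38.p14), because these members were at or near 0 in a whole group. Capitals mark matches on either strand to the GC box, which is GGGCGG, and to the box named for its letters CCAAT. The letters TATAAA were searched as well, on both strands, with no match in either window, and no matches overlapped.
SLC35D2, chr9:96383712-96383961, minus strand: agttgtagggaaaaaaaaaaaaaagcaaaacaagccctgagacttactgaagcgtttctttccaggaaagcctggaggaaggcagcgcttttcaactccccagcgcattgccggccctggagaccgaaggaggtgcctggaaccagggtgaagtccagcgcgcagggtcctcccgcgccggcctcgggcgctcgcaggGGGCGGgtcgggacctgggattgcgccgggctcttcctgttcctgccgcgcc
SLC16A10, chr6:111087253-111087502, plus strand: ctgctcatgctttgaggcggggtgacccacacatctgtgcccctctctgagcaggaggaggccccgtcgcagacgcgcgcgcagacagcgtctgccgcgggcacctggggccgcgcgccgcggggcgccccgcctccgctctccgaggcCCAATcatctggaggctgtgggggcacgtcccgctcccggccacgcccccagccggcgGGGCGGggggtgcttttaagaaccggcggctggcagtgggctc
The SLC35D2 window held 1 GC box and 19 CpG dinucleotides, and the SLC16A10 window 1 GC box, 1 CCAAT box and 28 CpG dinucleotides. Among 35116 promoter windows of the same length 42.6% held a GC box, 32.0% a CCAAT box and 10.7% TATAAA, and 65.4% had fewer CpG dinucleotides than SLC35D2 and 84.1% fewer than SLC16A10. A match describes the letters of the window only.

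SLC35D2 (ENSG00000130958, chromosome 9, minus strand) encodes a Golgi transporter that takes up UDP-N-acetylglucosamine, UDP-glucose and GDP-mannose. It was at 0.08, 0 and 0 CPM in the ALDH-high clones 1, 6 and 10, against 5.08, 7.11 and 5.12 CPM in the ALDH-low clones 1, 3 and 8. Wild type had 0.56 CPM, between the groups and nearer to the ALDH-high clones, and the groups were far apart with no overlap. In bulk RNA, fewer cells with a transcript and less of it per cell cannot be told apart. Group means were 0.0267 ± 0.0462 CPM in the ALDH-high and 5.77 ± 1.16 CPM in the ALDH-low clones (SD, n = 3 each). SLC35D2 fell by 2.71 log2 units (SE 0.217, limma adjusted p = 0.00178). The values correspond to 2 reads in ALDH-high and 436 reads in ALDH-low clones, a ratio of 215 for ALDH-low over ALDH-high with an exact 95% counting interval of 59.3 to 1784. That interval pools the reads of each group and covers counting error only, not the spread between clones. Its adjusted p lay between 0.000613 and 0.0166 under all 16 alternative settings. The size of the change rested on the pseudocount, at -5.57 log2 units with 0.1 CPM and -1.09 log2 units with 5 CPM.

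Over the 7 libraries, the genes whose log2(CPM + 1) followed SLC35D2 most closely were DPP7 and RP11-63P12.6, also on chromosome 9, then APCDD1L on chromosome 20, TMCO3 on chromosome 13 and RAB27A on chromosome 15. Their Pearson correlations ran between 0.989 and 0.998. DPP7, a lysosomal dipeptidyl peptidase gene, was at 0.04, 0.04 and 0.08 CPM in the ALDH-high clones 1, 6 and 10, against 9.64, 12.37 and 9.92 CPM in the ALDH-low clones 1, 3 and 8, with 0.92 CPM in wild type. Like SLC35D2, its wild-type value lay between the groups and nearer to ALDH-high. TMCO3 showed the same order at a higher level, 40.57, 41.04 and 38.04 CPM against 83.56, 80.88 and 80.28 CPM, with 44.12 CPM in wild type. The most opposed patterns were those of C3orf14, ZNF813, ZNF331, PPP6R3 and EPHA7, between -0.984 and -0.979. These correlations share the same 7 libraries and were ranked over all listed genes, so they are a description.

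SLC43A3 (ENSG00000134802, chromosome 11, minus strand) sits in a family named for amino acid transport, but is known to carry purine nucleobases such as adenine. It was at 0.12, 0.82 and 0.68 CPM in the ALDH-high clones 1, 6 and 10, against 5.16, 18.23 and 5.16 CPM in the ALDH-low clones 1, 3 and 8. The groups did not overlap, ALDH-low clone 3 stood 1.64 log2 units above every other clone, and wild type had 0.32 CPM, within the ALDH-high range. Group means were 0.54 ± 0.370 CPM in the ALDH-high and 9.52 ± 7.55 CPM in the ALDH-low clones (SD, n = 3 each), 17.6-fold lower in ALDH-high. SLC43A3 fell by 2.58 log2 units (SE 0.456, limma adjusted p = 0.0427). The call did not hold without ALDH-high clone 1, 6 or 10 (adjusted p = 0.0745, 0.0824 and 0.144) or without ALDH-low clone 1 or 8 (0.124 and 0.116), and it held without ALDH-low clone 3 at -2.03 log2 units (adjusted p = 0.0296). It held under 8 of the 16 alternative settings, with an adjusted p between 0.0175 and 0.144 over all 16.

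**Figure D1:**
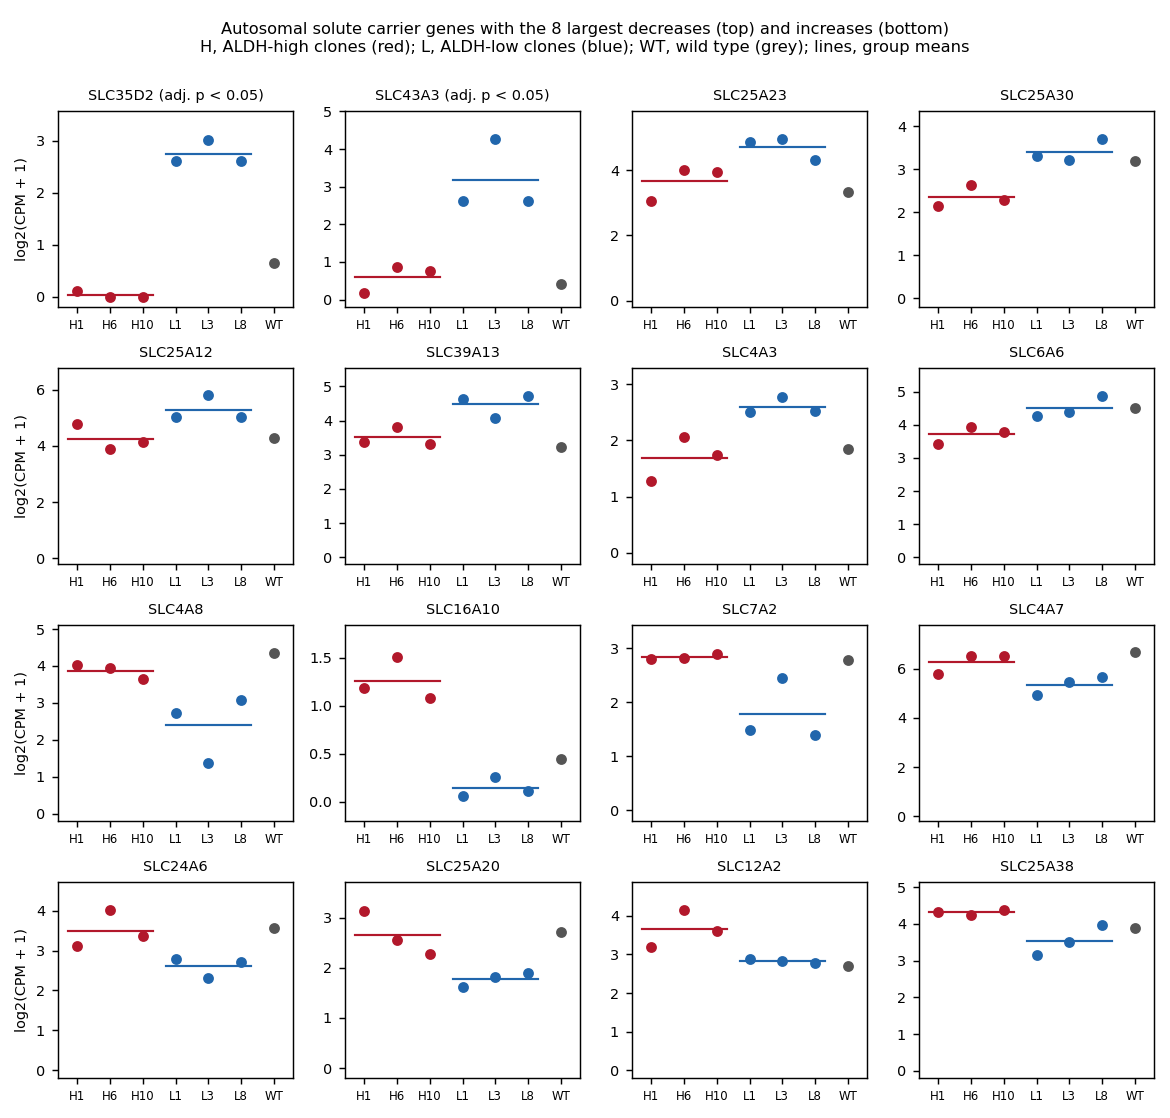
Each panel shows a solute carrier gene, with log2(CPM + 1) on the vertical axis and the 7 libraries on the horizontal axis; points are libraries and lines are means of the 3 ALDH-high (H) or 3 ALDH-low (L) clones. The top 8 panels hold the largest decreases and the bottom 8 the largest increases among autosomal members whose groups do not overlap; only SLC35D2 and SLC43A3 pass the test.

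The listed genes on each side of SLC35D2 and SLC43A3, in GENCODE release 29 order, did not pass the test. Of the 10 nearest to SLC35D2, 8 were tested, 0 fell or rose (smallest adjusted p = 0.294), and their changes ran between -0.55 and 0.06 log2 units. The change was below 0 in 7 of these 8, with a median of -0.26 log2 units. ERCC6L2, the next gene on one side, was at 13.99, 16.62 and 11.4 CPM in the ALDH-high clones 1, 6 and 10, against 12.2, 14.69 and 13.08 CPM in the ALDH-low clones 1, 3 and 8. ZNF367, next on the other side, was at 16.93, 37.02 and 26.08 CPM against 24.08, 28.24 and 26.44 CPM. The groups overlapped for both, while SLC35D2 between them was near 0 in every ALDH-high clone. Of the 10 genes nearest to SLC43A3, 7 were tested and 0 fell or rose (smallest adjusted p = 0.171). Here too most changes were below 0, in all 7 genes, with a median of -0.47 log2 units. The groups did not overlap in 3 of these 7, TNKS1BP1, RTN4RL2 and TIMM10, all lower in ALDH-high clones, against 12.1% of all tested genes that were lower without overlap. TNKS1BP1 was at 17.4, 28.36 and 13.6 CPM in the ALDH-high clones, against 36.12, 34.29 and 28.48 CPM in the ALDH-low clones. TIMM10, a chaperone of mitochondrial protein import, was at 260.2, 246.66 and 220.64 CPM in the ALDH-high clones, against 294, 288.41 and 344.28 CPM in the ALDH-low clones. RTN4RL2 was at 1.95, 2.38 and 2.2 CPM against 7.76, 2.51 and 5.76 CPM.

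**Figure D2:**
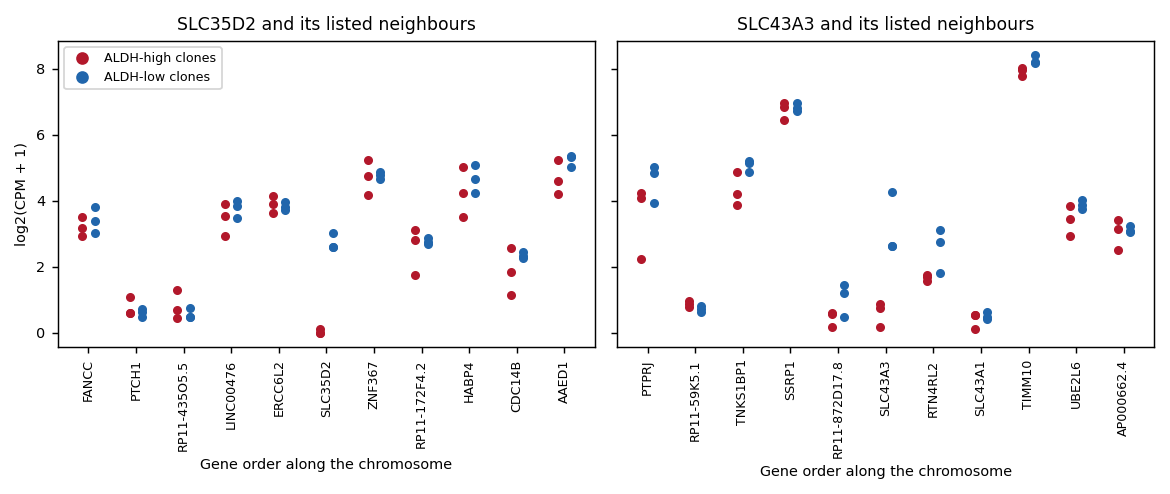
Genes in chromosome order around SLC35D2 (left) and SLC43A3 (right) on the horizontal axes, with log2(CPM + 1) of the 3 ALDH-high clones (red) and 3 ALDH-low clones (blue) on the vertical axis. SLC35D2 and SLC43A3 show the widest gap between the groups in their panels, and the neighbours of SLC35D2 overlap between the groups.

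Of the 20 SLC35 members, the nucleotide-sugar family, all were tested, 1 fell (SLC35D2) and 0 rose, against 1.34% called of all tested genes. At an unadjusted p below 0.05 there were 2 higher and 3 lower (5 of 20, against 19.7% of all tested genes). The median change was -0.03 log2 units. SLC35E3, an orphan member, was at 25.23, 27.46 and 21 CPM in the ALDH-high clones 1, 6 and 10, against 16.68, 15.12 and 11.92 CPM in the ALDH-low clones 1, 3 and 8 (0.72 log2 units, SE 0.194, limma adjusted p = 0.108). These groups did not overlap, and wild type lay between them at 19.06 CPM. The closest relative of SLC35D2 by name, SLC35D1, which takes UDP-glucuronic acid and UDP-N-acetylgalactosamine into the endoplasmic reticulum, averaged 9.74 ± 1.37 CPM in the ALDH-high and 9.42 ± 0.453 CPM in the ALDH-low clones (n = 3 each), a difference within the spread of the clones. SLC35A3, also a carrier of UDP-N-acetylglucosamine, averaged 25.2 ± 3.27 CPM and 23.1 ± 0.786 CPM. SLC35A1, the CMP-sialic acid carrier, stood out only in ALDH-low clone 1, with 3.68 CPM there against 7.35 and 9 CPM in the ALDH-low clones 3 and 8 and 7.92 to 9.2 CPM in the ALDH-high clones. SLC35E1 was at 3.42, 29.51 and 25.16 CPM in the ALDH-high clones 1, 6 and 10, against 43.96, 20.62 and 40.04 CPM in the ALDH-low clones 1, 3 and 8, with 4.08 CPM in wild type. Its groups overlapped, and ALDH-high clone 1 and wild type stood far below the rest.

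Enzymes that make nucleotide sugars were listed for 26 of 27 fixed symbols, in 27 rows. All 27 rows were tested, 0 rose and 0 fell, with 5 higher and 2 lower at an unadjusted p below 0.05 (25.9%, against 19.7% of all tested genes) and a median of -0.09 log2 units. UAP1L1, a relative of the enzyme that makes UDP-N-acetylglucosamine, had the largest change, at 1.27, 3 and 1.24 CPM in the ALDH-high clones 1, 6 and 10, against 4.52, 13.4 and 6.92 CPM in the ALDH-low clones 1, 3 and 8 (-1.65 log2 units, SE 0.391, limma adjusted p = 0.0855). Its groups did not overlap and wild type, at 1.6 CPM, lay within the ALDH-high range. UAP1, that enzyme itself, was at 432.06, 484.71 and 573.88 CPM against 403.76, 297.06 and 412.16 CPM (adjusted p = 0.249). Of the 34 carriers and accessory proteins fixed that bear no symbol of the SLC form, 27 symbols were listed in 28 rows. In all, 24 rows were tested, 0 rose and 0 fell. Of these rows 2 were higher and 0 lower at an unadjusted p below 0.05 (8.33%, against 19.7% of all tested genes). The 2 higher were MFSD2A, a carrier of lysophosphatidylcholine, and UCP2, a mitochondrial carrier, at 1.11 and 1.03 log2 units (adjusted p = 0.120 and 0.151). MFSD12 had the largest change, -1.22 log2 units without overlap of the groups (limma adjusted p = 0.290). Its lowest clone was ALDH-high clone 1, at 12.36 CPM.

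**Figure D3:**
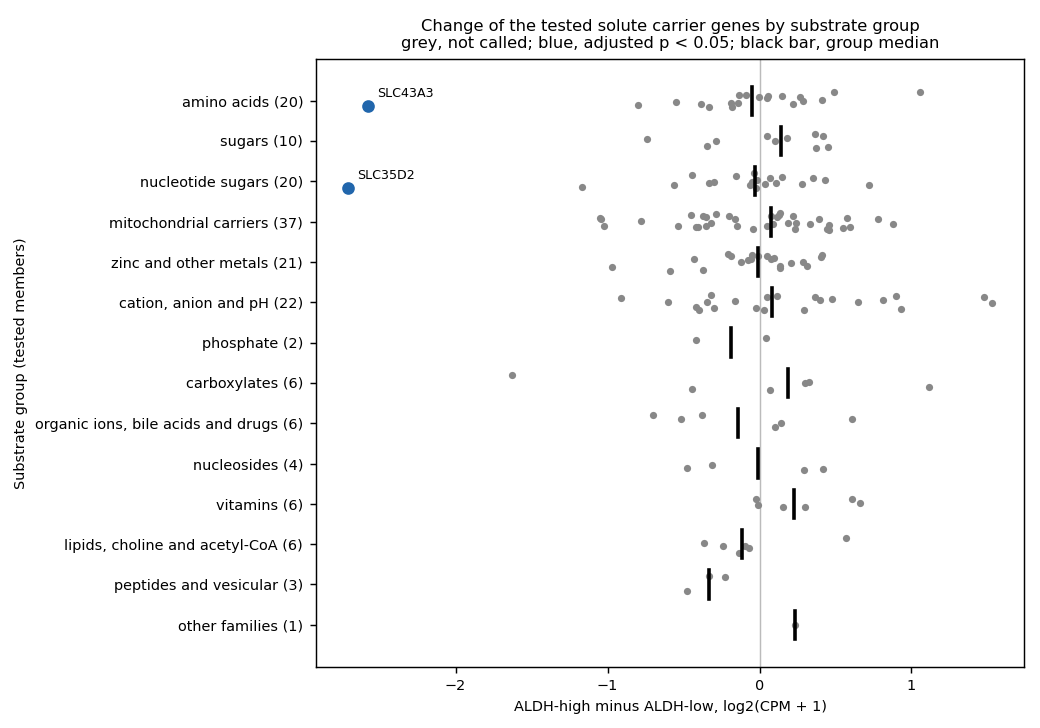
Change of the 164 tested members (ALDH-high mean minus ALDH-low mean of log2(CPM + 1)) on the horizontal axis by substrate group on the vertical axis, with the number tested in brackets. Each point is a gene and black bars are group medians, which lie near 0 in the larger groups, while SLC35D2 and SLC43A3 are the 2 points farthest to the left.

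Among the 6 carboxylate carriers of the SLC16 family, 0 rose and 0 fell, with 1 higher and 1 lower at an unadjusted p below 0.05 (33.3%, against 19.7% of all tested genes). The groups did not overlap in 4 (66.7%, against 26.1% of all tested genes). SLC16A10 (chromosome 6), a carrier of aromatic amino acids, was at 1.27, 1.85 and 1.12 CPM in the ALDH-high clones 1, 6 and 10, against 0.04, 0.2 and 0.08 CPM in the ALDH-low clones 1, 3 and 8, with 0.36 CPM in wild type. It was low in every ALDH-low clone, and its change of 1.12 log2 units (SE 0.222) just missed the threshold (limma adjusted p = 0.0585). It passed with a pseudocount of 0.1 CPM (adjusted p = 0.0497), without a filter (0.0473), without a variance trend (0.0362) and with library weights (0.0285), within a range of 0.0285 to 0.179 over its alternatives. The lactate and pyruvate carrier SLC16A1 averaged 65.2 ± 5.52 CPM in the ALDH-high and 52.0 ± 7.48 CPM in the ALDH-low clones (n = 3 each, adjusted p = 0.300). SLC16A7, a second carrier of this kind, was at 12.84, 12.44 and 2.92 CPM in the ALDH-high clones 1, 6 and 10, with clone 10 below all other libraries.

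The SLC25 mitochondrial carriers were the largest family, with 41 rows, of which 37 were tested, and 0 rose or fell. At an unadjusted p below 0.05 there were 9 higher and 7 lower in ALDH-high clones (43.2%, against 19.7% of all tested genes), and the groups did not overlap in 21 of the 37 (56.8%), 10 higher and 11 lower, against 26.1% of all tested genes. The 10 higher include a SLC25A10 row whose values are identical to those of MRPL12, while the groups overlapped in the other SLC25A10 row. The median change was 0.08 log2 units, since members differed in opposite directions. The lower members included SLC25A30, SLC25A51, SLC25A12 and SLC25A23. SLC25A51, the importer of NAD, was at 47.29, 46.75 and 49.56 CPM in the ALDH-high clones 1, 6 and 10, against 69.24, 73.38 and 66.76 CPM in the ALDH-low clones 1, 3 and 8 (-0.53 log2 units, SE 0.130, limma adjusted p = 0.0899), with 35.01 CPM in wild type, below all clones. The ALDH-high values lay close together, well below the lowest ALDH-low value. SLC25A30, known as kidney mitochondrial carrier protein, was at 3.46, 5.21 and 3.88 CPM against 8.88, 8.25 and 11.96 CPM (-1.04 log2 units, SE 0.229, adjusted p = 0.0714). SLC25A12, the aspartate-glutamate carrier of the malate-aspartate shuttle, was at 26.27, 13.75 and 16.48 CPM against 31.8, 54.52 and 31.6 CPM (-1.03 log2 units, adjusted p = 0.122). SLC25A23, which exchanges ATP-magnesium for phosphate under control of calcium, was at 7.23, 15.14 and 14.32 CPM against 28.28, 30.13 and 18.8 CPM (-1.05 log2 units, adjusted p = 0.123). SLC25A30, SLC25A12 and SLC25A23 thus had means about 1 log2 unit lower in ALDH-high clones, and none of them passed.

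Among the SLC25 members with higher values in ALDH-high clones, SLC25A38, which supplies glycine for haem synthesis, was at 19.19, 18.1 and 19.8 CPM in the ALDH-high clones 1, 6 and 10, against 7.96, 10.41 and 14.56 CPM in the ALDH-low clones 1, 3 and 8 (0.78 log2 units, SE 0.228, limma adjusted p = 0.127). SLC25A20, the carnitine-acylcarnitine carrier of fatty acid oxidation, was at 7.79, 4.84 and 3.84 CPM against 2.08, 2.51 and 2.72 CPM (0.88 log2 units, adjusted p = 0.134). SLC25A22, a glutamate carrier, was at 41.84, 42.31 and 39.68 CPM against 29.44, 29.93 and 29.8 CPM (0.46 log2 units, adjusted p = 0.129). The SLC25A22 values of each group lay close together, and wild type was below all clones at 26.02 CPM. SLC25A3, the phosphate carrier, was at 611.64, 509.75 and 524.52 CPM against 393.04, 372.67 and 442.48 CPM (0.44 log2 units, adjusted p = 0.156). The main ADP/ATP carrier of dividing cells, SLC25A5, averaged 376 ± 28.6 CPM in the ALDH-high and 386 ± 14.1 CPM in the ALDH-low clones (n = 3 each), a difference of less than 1 SD. SLC25A29, a basic amino acid carrier, was at 1.63, 8.21 and 6.64 CPM in the ALDH-high clones 1, 6 and 10, and clone 1 was below all other libraries. SLC25A10 is listed under 2 identifiers, and the values of one of them are identical to those of MRPL12, so its reads cannot be assigned. In the same way SLC5A3 shares all values with MRPS6, and SLC12A5 shares them with RP11-465L10.7, SLC39A3 with AC006538.4 and SLC50A1 with RP11-540D14.6, so these reads too have no certain source.

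**Figure D4:**
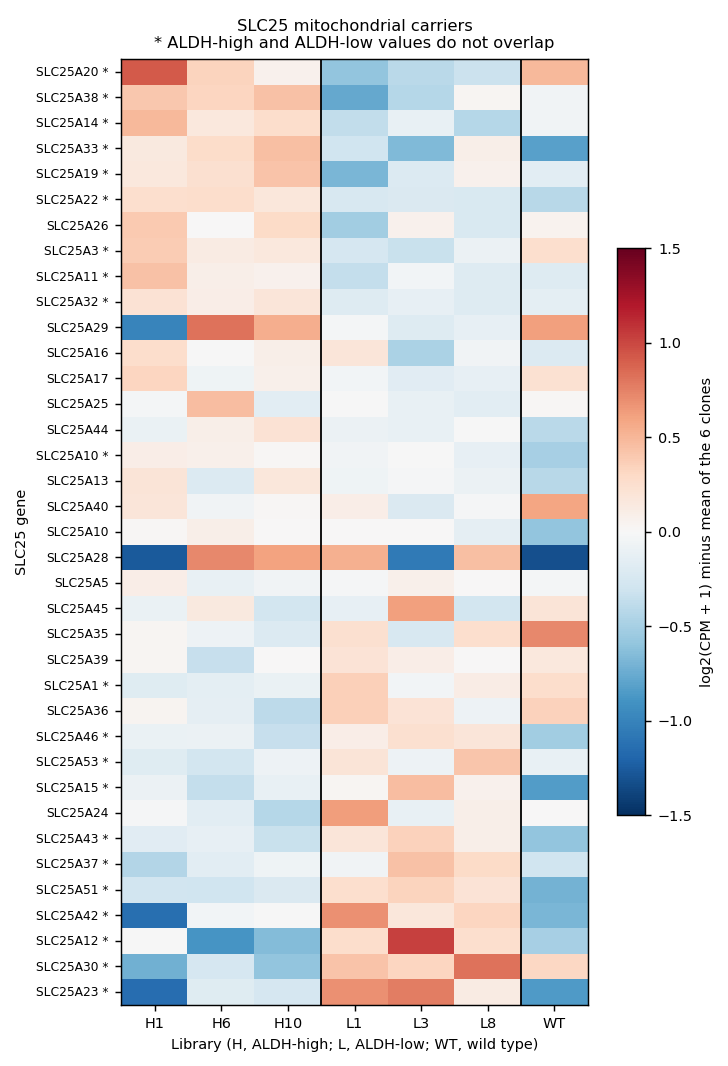
Rows are the 37 tested SLC25 genes ordered by change, and columns are the 3 ALDH-high clones (H), the 3 ALDH-low clones (L) and wild type (WT); colour is log2(CPM + 1) minus the mean of the 6 clones, cut at 1.5 log2 units. Stars mark the 21 genes whose groups do not overlap, 10 higher and 11 lower in ALDH-high clones, most of them at the ends of the order.

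Of 22 amino acid carriers 20 were tested, with SLC43A3 as the 1 that fell and 0 that rose, against 1.34% called of all tested genes, and the median change was -0.05 log2 units. SLC7A2, a carrier of arginine and lysine on chromosome 8, was at 5.96, 6.03 and 6.44 CPM in the ALDH-high clones 1, 6 and 10, against 1.8, 4.48 and 1.64 CPM in the ALDH-low clones 1, 3 and 8 (1.06 log2 units, SE 0.302, limma adjusted p = 0.120). Its ALDH-high clones and wild type, at 5.88 CPM, were nearly equal, and without ALDH-low clone 3 it rose by 1.39 log2 units (adjusted p = 0.0358). SLC7A2 passed under 2 of the 16 alternative settings, with a limma adjusted p between 0.0358 and 0.296 over all 16. Its change ran between 0.56 and 1.39 log2 units over these settings. SLC38A2, a neutral amino acid carrier known to respond to amino acid shortage, was at 319.33, 297.52 and 292.04 CPM against 182.92, 234.99 and 231.72 CPM (0.49 log2 units, adjusted p = 0.134). The glutamine carrier SLC1A5 was at 153.94, 193.72 and 157.6 CPM against 130.88, 157.21 and 168.6 CPM. SLC7A5 and SLC3A2, the light and heavy chains of a leucine transporter, ran between 33.42 and 80.4 CPM and between 62.84 and 126.99 CPM in the ALDH-high clones, against 46.84 to 76.44 CPM and 66.28 to 134.68 CPM in the ALDH-low clones. The groups overlapped in all 3 of these genes. SLC6A8, the creatine carrier, was at 3.66, 33.24 and 13.24 CPM in the ALDH-high clones 1, 6 and 10, against 13.96, 14.22 and 11.08 CPM in the ALDH-low clones. Its lowest and highest values were thus in the same group, and wild type had 7.31 CPM.

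The carriers of cations, anions and protons numbered 23, of which 22 were tested, and 0 rose or fell, with 6 higher and 2 lower at an unadjusted p below 0.05 (36.4%, against 19.7% of all tested genes). Of the 5 members of the SLC4 family, the groups did not overlap in 4, against 26.1% of all tested genes. SLC4A8, a sodium-driven chloride-bicarbonate exchanger, was at 15.38, 14.28 and 11.52 CPM in the ALDH-high clones 1, 6 and 10, against 5.56, 1.61 and 7.48 CPM in the ALDH-low clones 1, 3 and 8 (1.48 log2 units, SE 0.411, limma adjusted p = 0.114). SLC4A7, a sodium-bicarbonate cotransporter, was at 54.72, 91.28 and 90.36 CPM against 29.88, 42.82 and 49.2 CPM (0.93 log2 units, adjusted p = 0.114). Wild type was above all clones in both, at 19.42 and 100.91 CPM. SLC4A3, a chloride-bicarbonate exchanger, was lower, at 1.43, 3.16 and 2.32 CPM against 4.68, 5.81 and 4.76 CPM (-0.91 log2 units, adjusted p = 0.113). In the SLC12 family of cation-chloride cotransporters, SLC12A2, which brings sodium, potassium and chloride into the cell, was at 8.11, 16.7 and 11.28 CPM against 6.36, 6.17 and 5.88 CPM (0.82 log2 units, adjusted p = 0.149). Its ALDH-low values were close together and its ALDH-high values spread. SLC12A7, a potassium-chloride exporter, had the highest change of any member, 1.53 log2 units (adjusted p = 0.175), but its groups overlapped, at 4.13, 6.07 and 10.48 CPM against 0.32, 4.83 and 1.24 CPM. SLC24A6, the mitochondrial sodium-calcium exchanger, was at 7.71, 15.19 and 9.36 CPM against 5.92, 3.97 and 5.52 CPM (0.90 log2 units, adjusted p = 0.139).

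All 21 zinc, copper and magnesium carriers were tested, and 0 rose or fell, with 1 higher and 3 lower at an unadjusted p below 0.05 (19.0%, against 19.7% of all tested genes). The 1 higher was SLC39A3, whose reads have no certain source. SLC39A13, a zinc carrier of the secretory pathway, was at 9.42, 13.09 and 8.96 CPM in the ALDH-high clones 1, 6 and 10, against 23.6, 15.83 and 25.44 CPM in the ALDH-low clones 1, 3 and 8 (-0.97 log2 units, SE 0.239, limma adjusted p = 0.0933). SLC39A14, an importer of zinc and iron, was at 53.65, 49.42 and 63.24 CPM against 73.04, 70.55 and 81.32 CPM (-0.43 log2 units, adjusted p = 0.173). The groups did not overlap for either gene, and wild type, at 8.31 and 46.08 CPM, was below all clones in each. The 5 zinc exporters of the SLC30 family had differences of -0.05 to 0.29 log2 units, and their groups overlapped in all 5. The smaller groups gave 0 calls by limma as well, with at most 2 members each at an unadjusted p below 0.05. In shares this was 33.3% of the 6 vitamin carriers and of the 6 carriers of organic ions, bile acids and drugs. It was 10% of the 10 tested sugar carriers and 0% of the 6 carriers of lipids, choline and acetyl-CoA, against 19.7% of all tested genes. Of the 6 vitamin carriers, the thiamine carrier SLC19A2 was at 10.65, 13.17 and 11.92 CPM against 7.04, 7.19 and 7.24 CPM (0.66 log2 units, adjusted p = 0.110), and the folate carrier SLC46A1 averaged 7.07 ± 1.44 CPM in the ALDH-high and 4.30 ± 1.03 CPM in the ALDH-low clones. Among sugar carriers SLC2A6, a hexose transporter, averaged 3.56 ± 1.32 CPM in the ALDH-high and 6.40 ± 0.560 CPM in the ALDH-low clones (adjusted p = 0.172), and SLC5A6, which by its family falls here but carries biotin and pantothenate, averaged 36.7 ± 7.53 and 26.5 ± 4.83 CPM. SLC22A18 and SLC10A3, both of poorly known substrate, averaged 0.697 ± 0.307 and 19.1 ± 5.05 CPM in the ALDH-high clones, against 1.75 ± 0.416 and 27.1 ± 1.53 CPM in the ALDH-low clones. SLC27A5, a bile acid and fatty acid CoA ligase, was at 16.57, 10.51 and 11.04 CPM in the ALDH-high clones 1, 6 and 10, against 11.04, 9.62 and 4.84 CPM in the ALDH-low clones 1, 3 and 8. The choline carrier SLC44A1 averaged 11.8 ± 2.26 CPM in the ALDH-high and 15.4 ± 1.95 CPM in the ALDH-low clones (SD, n = 3 each).

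The 10 members that were not tested had at most 2.83 CPM in any clone. They were SLC1A1, SLC2A4, SLC9A5, SLC17A7, SLC25A4, SLC25A6, SLC25A27, SLC25A52, SLC37A1 and SLC43A1. SLC25A4, the ADP/ATP carrier of muscle and heart, was at 0.12, 2.83 and 0.48 CPM in the ALDH-high clones 1, 6 and 10, against 0.4, 0 and 0.4 CPM in the ALDH-low clones 1, 3 and 8. SLC25A6 is listed under the identifier of a pseudoautosomal copy, and no value is given for it.

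No test was made of the clones against wild type, which is 1 library. Wild type lay outside the range of the 6 clones in 77 of 164 tested members (47.0%), above in 28 and below in 49, against 48.0% of all tested genes, of which 22.6% were above and 25.4% below. At least 1 log2 unit above the clones were 3 of the 164 members (1.83%, against 1.16% of all tested genes), and at least 1 log2 unit below were 3 (1.83%, against 0.661%). SLC27A1, a fatty acid transport protein, was at 1.08 to 1.93 CPM in the ALDH-high and 1.22 to 2.2 CPM in the ALDH-low clones, against 6.63 CPM in wild type. SLC17A5, the lysosomal sialic acid exporter, was at 0.94 to 1.12 CPM and 1.61 to 2.08 CPM, against 5.91 CPM in wild type. SLC2A4, the insulin-responsive glucose transporter, which was not among the tested members, was at most 0.72 CPM in any clone, against 4.12 CPM in wild type. These 3 genes were thus lower in all clones of either ALDH class than in wild type. In the other direction SLC4A2, an anion exchanger, was at 49.63, 141.47 and 132.28 CPM in the ALDH-high clones 1, 6 and 10 and 109.72 to 151.56 CPM in the ALDH-low clones, against 19.14 CPM in wild type. SLC5A6 was at 28.89 to 43.92 CPM and 21 to 29.96 CPM, against 9.79 CPM in wild type. SLC30A1, a zinc exporter of the plasma membrane, was at 2.66 to 5.91 CPM and 3 to 5.04 CPM, against 0.8 CPM in wild type. Of the 20 tested amino acid carriers wild type was below all clones in 8 and above in 2. Taken as wild type minus the mean of the clones, the median over these carriers was -0.55 log2 units, against -0.12 for all members and -0.04 for all tested genes. SLC7A5 was at 33.42 to 80.4 CPM in the 6 clones, against 19.18 CPM in wild type, and SLC1A5 at 130.88 to 193.72 CPM, against 89.6 CPM in wild type. SLC38A2 differed in the opposite direction, at 182.92 to 319.33 CPM in the 6 clones, against 469.44 CPM in wild type. For the SLC35 family wild type was below all clones in 7 of 20 and above in 0.

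**Figure D5:**
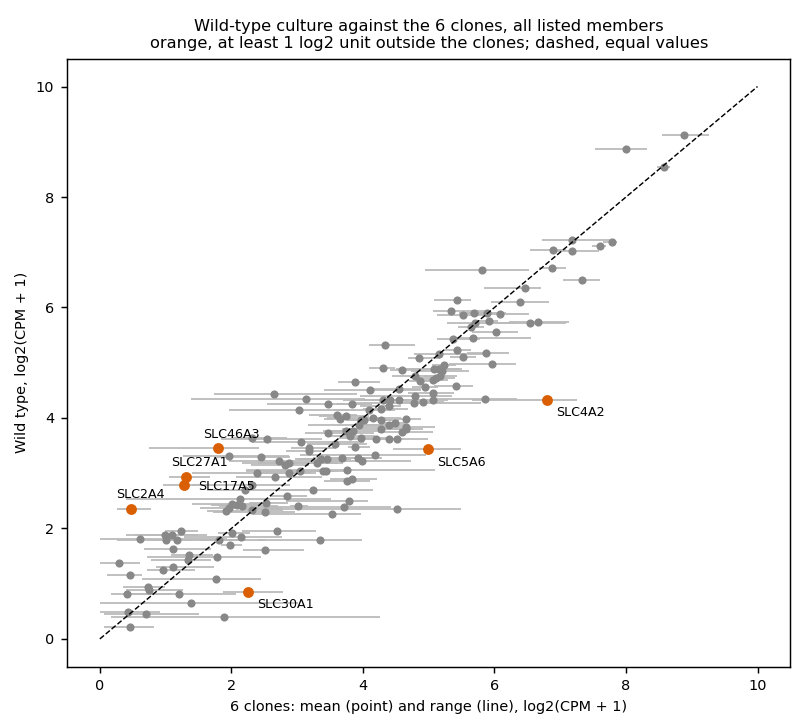
Wild type on the vertical axis against the 6 clones on the horizontal axis, both as log2(CPM + 1), for all 174 members; points mark the clone mean and grey lines the range over the clones. The 7 genes in orange lie at least 1 log2 unit outside the clones, with SLC2A4, SLC17A5, SLC27A1 and SLC46A3 above and SLC4A2, SLC5A6 and SLC30A1 below the dashed line of equal values.

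Within the groups, the SD of log2(CPM + 1) over the 3 clones had a median of 0.21 in ALDH-high and 0.22 in ALDH-low clones for the tested members, against 0.23 in each for all tested genes. ALDH-high clone 1 and wild type were at least 0.5 log2 units apart from the other 5 clones on the same side in 10 members (6.10%, against 6.56% of all tested genes). In 9 of these 10 both were below, namely SLC4A2, SLC6A8, SLC12A4, SLC15A4, SLC19A1, SLC25A23, SLC25A42, SLC27A4 and SLC35E1. SLC27A5 was above. No member paired wild type with ALDH-high clone 6 or 10 or with ALDH-low clone 1 or 8 in this way, and 2, SLC1A3 and SLC37A4, paired it with ALDH-low clone 3. SLC1A3, a glutamate carrier, was at 14.02 CPM in the ALDH-low clone 3 and 2.32 to 8.04 CPM in the other clones, against 20.66 CPM in wild type.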

How the data were processed

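The authors deposited a single table of CPM per gene, counts scaled to a fixed library total and rounded to 2 decimals, for 7 libraries. The aligner BWA (version 0.5.9) and the genome builds mm9 and hg19 appear in the submitters' processing notes without a role, and per the file headers each column name closes with CAGEr, a package for 5′-end tags. The sources used here do not give how reads were assigned to genes, or whether by strand, so reads of overlapping genes cannot be told apart. Per the labels RNA was isolated with an RNeasy kit. A count test was not used, because the deposited values are CPM. The step of 1 read was taken as the value whose whole multiples matched the CPM to within 0.0051 CPM.

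The clone groups were compared by their log2(CPM + 1), over genes that reached 1 CPM in 3 or more of the 6 clones, with limma 3.58.1 in R 4.3.3 (eBayes with a variance trend, two-sided, Benjamini-Hochberg adjustment, threshold 0.05). The test was checked on simulated data. P-values measure the spread between clones of 1 line. Gene order was read from the GENCODE 29 annotation of GRCh38, in which 172 of 174 members were found by ID, and promoters from RefSeq, matched by symbol for 140. Alternatives were pseudocounts of 0.1 and 5 CPM, no filter or one at 5 CPM, median-ratio scaling, quantile normalization, no variance trend, library weights, all 7 libraries, and each clone left out. The use of 1 gene per set of identical values was chosen after seeing the data.

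The members and lists were chosen with earlier results of these data known. Substrate groups follow family numbers. Named were members past the threshold, the 8 largest changes in each direction without overlap of the groups, the 6 highest levels, the 2 smallest p of each group with at least 5 tested members, the 3 wild-type values farthest outside the clones in each direction, and the member with the largest gap per clone. Other members were chosen for mention after their values were seen. Some genes that this rule or the lists take in are not reported here.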

Additional observations from a re-analysis of the deposited data

How the results depend on the processing

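SLC35D2 passed the threshold under every alternative run. The count of members that fell, 2, was 1 with a pseudocount of 5 CPM, with no filter on low values or one at 5 CPM, and 7 with library weights; with each clone left out it ran between 1 and 3. The count that rose, 0, was 1 with a pseudocount of 0.1 CPM, without a filter and without a variance trend, and 5 with library weights; with each clone left out it ran between 0 and 1. Whole-table counts moved as well, with 700 genes called with library weights and 34 to 173 with a clone left out. SLC43A3 lost its call with a pseudocount of 5 CPM (limma adjusted p = 0.0863), with no filter (0.0501) and with the stricter one (0.0546). Some members that were not called changed sign. With library weights SLC16A7 was at -0.055, SLC30A1 at 0.025 and SLC6A8 at 0.33 log2 units; with a pseudocount of 5 CPM SLC30A1 was at 0.0019 and SLC6A8 at 0.015. With a clone left out the changes ran between -0.013 and 0.90 for SLC16A7, -0.11 and 0.80 for SLC25A29, -0.10 and 0.0016 for SLC25A5, -0.21 and 0.10 for SLC27A1, -0.28 and 0.18 for SLC30A1, -0.61 and 0.14 for SLC4A2, and -0.78 and 0.66 for SLC6A8. The cause was not tested. The median of all tested genes lay between -0.01 and 0.03 log2 units under the 16 settings. Values below about 0.12 CPM lie under the limit that a count of 0 sets, so changes between such values are not detectable at this depth. No paired analysis was possible because the groups share a single clone number, which is a name and not a pairing.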
